A study of Saccharomyces cerevisiae with 14 samples.

Results

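Sef1 sites that took better places among the bound sites of glucose cells than among those of glycerol cells are described here. They were chosen by the score that each peak carries in the deposited lists. Peak intervals of the 7 lists that overlapped were merged into 1066 sites, and 203 of these had a peak in every list. Within each list these shared sites were ranked by score, where rank 1 is the highest. A site was kept when all 4 of its YPD ranks were better than all 3 of its YPGly ranks, which held for 69 sites. These 69 are 34.0% of the shared sites, the opposite order held for another 69 (34.0%), and the ranks of the remaining 65 overlapped between media. Since the scores chose the sites, ranks and enrichments are given below as descriptions without a test.

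Chromatin was immunoprecipitated from Saccharomyces cerevisiae W303 cells whose own SEF1 gene ends in a TAP affinity tag (SEF1-TAP::FRT), with an input library for every ChIP library. Cells of both groups came from overnight YPD cultures. The YPGly cells were cultured for 4.5 h at 30°C in medium with the respired carbon source glycerol to 0.4 OD per ml, and 500 OD of cells entered each of 3 repeats. The YPD cells were cultured for the same time in medium with fermented glucose to 1.0 OD per ml, and 1500 OD of cells, precipitated in portions and then combined, entered each of 4 repeats. All 14 samples, inputs included, came from 1 tagged strain, W303ScSef1TAPNB1-1, of mating type a, which also carries his3-11,15, trp1-1, ura3-1 and ade2-1 together with can1-100 and a mutant allele of LEU2. A strain without the tag was not analysed here, and medium, cell density and the number of cells cannot be told apart. The library of YPGly repeat 3 was sequenced separately, with paired reads.

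Sef1 is a zinc cluster transcription factor. Factors of this family bind DNA mostly as dimers, with each subunit placing a small zinc-bearing fold over a CGG triplet, and the orientation and spacing of the triplets set which sites a family member prefers. Sef1 relatives are known in Candida albicans for the control of iron uptake genes and in Lachancea kluyveri for the control of TCA cycle genes. In S. cerevisiae, glucose represses respiration, and cells given glycerol depend on the TCA cycle and the respiratory chain.

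The inverted repeat CCGNNNNNCGG (CCGN5CGG), which is its own reverse complement, lay within 250 bp around the center of 14 of the 69 sites. The matches at the 6 highest-scoring of these, and the match at the site of GID7 that falls inside the GLK1 reading frame, are shown with 10 bp on each side, in the orientation of the reference strand of assembly R64, with the triplets in capitals. The stretches are chrXIV:559357-559387 (IDH1), chrXVI:297232-297262 (ISU1), chrXIII:557129-557159 (NDE1), chrXII:198226-198256 (AAT2), chrXII:500464-500494 (UPS2), chrV:260228-260258 (PIC2) and chrIII:51557-51587 (GID7).
IDH1: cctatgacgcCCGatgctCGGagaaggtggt
ISU1: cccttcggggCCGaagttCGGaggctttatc
NDE1: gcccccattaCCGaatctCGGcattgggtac
AAT2: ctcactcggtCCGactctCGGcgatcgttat
UPS2: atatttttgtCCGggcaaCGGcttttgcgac
PIC2: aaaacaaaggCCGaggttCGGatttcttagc
GID7: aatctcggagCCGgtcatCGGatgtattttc

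A whole window of 250 bp shows how such a match sits in a promoter. The window of NDE1 is chrXIII:557001-557250 on the reference strand, with the 11-bp match in capitals. A second window shows one of the sites that hold no such repeat but a tRNA gene. It lies at chrXIV:568022-568271 and centers on the tRNA-Pro gene YNCN0011W, drawn in capitals.
NDE1 window: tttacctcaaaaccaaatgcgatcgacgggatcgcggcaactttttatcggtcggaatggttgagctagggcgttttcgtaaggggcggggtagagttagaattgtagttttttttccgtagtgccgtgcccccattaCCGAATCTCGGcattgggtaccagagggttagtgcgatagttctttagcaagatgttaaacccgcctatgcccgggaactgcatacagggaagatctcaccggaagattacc
YNCN0011W window: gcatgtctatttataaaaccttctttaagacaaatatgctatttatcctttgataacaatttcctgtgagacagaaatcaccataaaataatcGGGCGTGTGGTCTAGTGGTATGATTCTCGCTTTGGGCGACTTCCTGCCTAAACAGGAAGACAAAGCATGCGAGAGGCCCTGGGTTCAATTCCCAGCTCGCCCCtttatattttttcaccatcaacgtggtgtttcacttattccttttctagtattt

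The inverted repeat was as frequent among the 69 sites (14 sites, 20.3%) as among the other 134 shared sites (27 sites, 20.1%). It was found in 6.94% of all 1066 merged sites and in 0.883% of the 6001 windows of 250 bp that end at an ATG. With 1 mismatch in the triplets, 46 of the 69 sites (66.7%) and 100 of the other shared sites (74.6%) matched, against 19.9% of the promoter windows. A direct repeat of the triplet, CGGN7CGG on either strand, was found in 16 of the 69 sites (23.2%) and in 29 of the others (21.6%), against 2.00% of promoter windows. It shared the window with the inverted repeat at 2 of the sites, ISU1 and NDE1. The inverted repeats lay close to the peaks, at a median of 15 bp from the center of the site, and 13 of 14 lay within 50 bp. The exception was the site in RUP1, 64 bp from its center. These are counts of letters in windows, and no test was made on them.

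The highest score of the 69 sites belonged to IDH1. This gene encodes a subunit of the NAD-dependent isocitrate dehydrogenase of the TCA cycle, and the site lay 390 bp before its ATG and 422 bp before that of the divergent NCE103, which encodes carbonic anhydrase. This site was ranked 5, 6 and 6 in the YPGly lists and 2, 1, 2 and 2 in the YPD lists. Its enrichment, the fold of ChIP over input at the peak, was 130.5, 121.8 and 133.1 in YPGly and 318.5, 183.7, 276.0 and 329.3 in YPD. All 4 YPD values were above the 3 YPGly values, and the ratio of the means, YPGly over YPD, was 0.46.

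ISU1 encodes the scaffold on which mitochondrial iron-sulfur clusters are built. Its site, 321 bp before the ATG, was ranked 10 in each YPGly list and 5 in each YPD list. The enrichment was 89.1, 71.9 and 82.7 in YPGly and 128.0, 86.3, 94.5 and 131.4 in YPD. The media overlapped here, because YPD repeat 2 was below YPGly repeat 1. AAT2, the cytosolic aspartate aminotransferase, had a site 155 bp before its ATG with ranks of 16, 16 and 17 in YPGly and of 9, 10, 10 and 10 in YPD. Its enrichment was 51.8, 40.5 and 43.4 in YPGly and 75.1, 45.9, 57.4 and 76.5 in YPD, again with YPD repeat 2 inside the YPGly range.

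NDE1 encodes the external NADH dehydrogenase of mitochondria, which passes electrons from cytosolic NADH to the respiratory chain. Its site lay 650 bp before the ATG and was ranked 12 in each YPGly list and 7, 8, 7 and 8 in the YPD lists. The enrichment was 89.4, 66.2 and 74.3 in YPGly and 85.5, 62.2, 71.5 and 92.2 in YPD. The values of the media overlapped almost fully, so the better places of NDE1 in YPD were not matched by a higher enrichment, and the ratio of the means was 0.98.

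For other strong sites of the set, the enrichment was lower in YPD although the rank was better there. UPS2, which encodes a mitochondrial protein of phospholipid transfer, had an enrichment of 76.7, 46.4 and 59.8 in YPGly and of 29.5, 31.1, 27.8 and 41.8 in YPD. All YPGly values were above the YPD values, and yet the site was ranked 13, 14 and 13 in YPGly and 12, 11, 11 and 11 in YPD. The site of SFG1, a regulator of pseudohyphal growth, had 57.2, 44.5 and 50.6 in YPGly and 39.2, 24.5, 26.5 and 34.7 in YPD, again without overlap. Its ranks were 18 in each YPGly list and 11, 13, 12 and 13 in YPD. A rank by score places a site among the other sites of the same list, and the score and the enrichment are separate columns of that list.

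The same was seen between SDS23 and OLE1, which encodes the fatty acid desaturase, where the mean enrichment was 24.8 ± 4.3 in YPGly (SD, n = 3) and 17.8 ± 3.4 in YPD (SD, n = 4). At PDH1, a putative 2-methylcitrate dehydratase, the means were 19.0 ± 4.0 in YPGly and 14.3 ± 3.1 in YPD, with ranks of 24 to 26 in YPGly and of 15 in every YPD list. At PIC2, a mitochondrial carrier of copper and phosphate, the means were 16.4 ± 4.1 in YPGly and 13.4 ± 2.4 in YPD, with ranks of 32 to 35 in YPGly and of 16 in every YPD list. These sites had close ranks within a medium while their enrichments differed between repeats. Also among the 10 highest-scoring sites, the one 183 bp inside the reading frame YPR064W, had a mean enrichment of 96.7 ± 15.2 in YPGly and of 66.5 ± 13.2 in YPD and moved by 1 or 2 places.

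**Figure D1:**
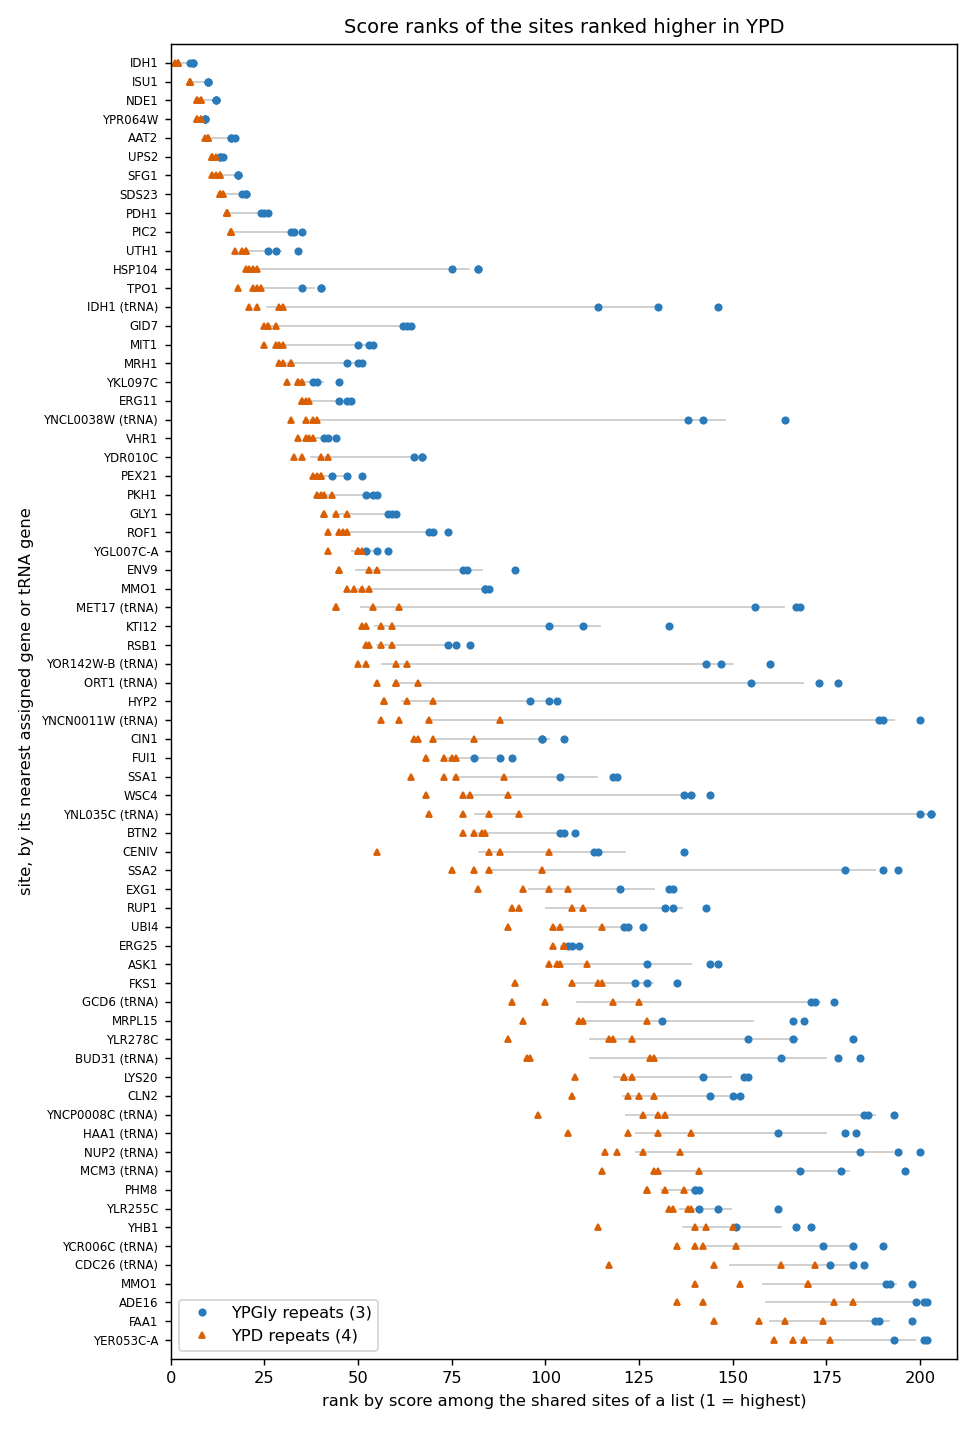
Rank of each of the 69 sites by score among the 203 shared sites, with 1 row for each site in the order of its mean rank in YPD, circles for the 3 YPGly repeats and triangles for the 4 YPD repeats. Grey lines join the means, and the rows marked tRNA, which overlap a tRNA gene, include the longest lines, up to a difference of 124.5 ranks at YNCN0011W.

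Over all 69 sites the mean rank in YPGly exceeded that in YPD by 1.5 to 124.5, with a median of 30.7. The SD of a site's ranks within a medium had a median of 3.79 in YPGly and 4.43 in YPD. At the border of the set, 5 sites had a gap of 1 rank between the worst YPD and the best YPGly rank (ERG25, YHB1, YPR064W, UPS2 and YGL007C-A). Just outside it, 5 sites had a gap of 0 (ISA1, SPT8, AMN1, YLR112W and PDR12), and ACO1, with rank 3 in each YPGly list and 4 in each YPD list, had the opposite order. In contrast, 10 sites had a gap of more than 50 ranks. Across the 69 sites, Spearman's correlation of the scores was 0.976 to 0.992 for the 9 pairs of lists within a medium and 0.823 to 0.897 for the 12 pairs across media. Over all 203 shared sites the ranges were 0.940 to 0.988 within a medium and 0.655 to 0.791 across media. The rule chose the 69 by their order between media, and sites of 1 list share its library and depth. These values are therefore descriptions.

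The better ranks in YPD did not always go with a higher enrichment there. The mean enrichment was higher in YPGly at 35 of the 69 sites and higher in YPD at 34. All 3 YPGly values were above all 4 YPD values at 13 sites, the opposite held at 14, and the values overlapped at 42. The ratio of means, YPGly over YPD, ran from 0.31 to 2.32 with a median of 1.02. Among the other 134 shared sites the median was 1.75 and 123 had the higher mean in YPGly. These 134 include the 69 sites with the opposite order, where the median was 2.66. At the 65 sites with overlapping ranks it was 1.26. The rule divided the sites by medium, so differences in ratio between the classes follow in part from it. Over all 203 shared sites the median ratio was 1.33. The median enrichment of the 69 sites was 2.86 in YPGly and 3.41 in YPD, and that of the other shared sites was 4.19 in YPGly and 2.11 in YPD.

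**Figure D2:**
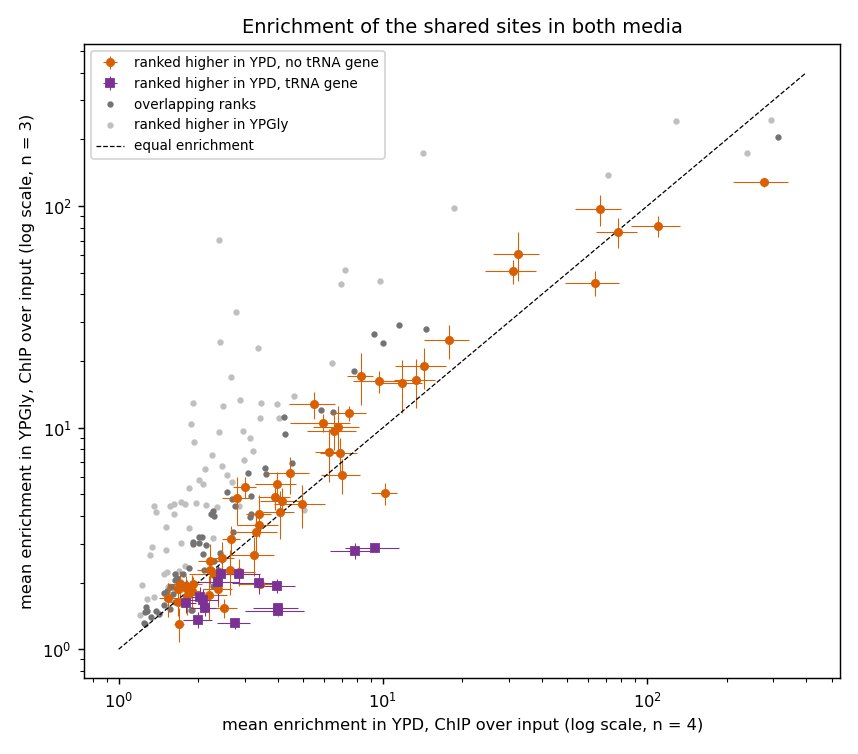
Mean enrichment of the 203 shared sites in YPGly (vertical axis, n = 3) against YPD (horizontal axis, n = 4), both on log scales, with SD bars for the 69 sites ranked higher in YPD. The 69 sites lie on both sides of the dashed line of equal enrichment, with the higher mean in YPGly at 35 and in YPD at 34, while the 15 of them at tRNA genes (squares) lie on the YPD side.

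At the ends of this range the sites differed in kind. The highest ratios were at YGL007C-A (2.32), VHR1 (2.07) and UPS2 (1.87). At VHR1, a regulator of biotin genes, the enrichment was 21.6, 12.6 and 17.3 in YPGly and 9.09, 7.84, 7.18 and 9.02 in YPD, and the ranks of 41 to 44 in YPGly and of 34 to 38 in YPD were 3 apart at the closest. Of the 10 lowest ratios, 7 were at tRNA genes. The other 3 were at the promoters of IDH1 (0.46) and HSP104 (0.50) and at ADE16 (0.57), where the center lay in RPL15A.

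Transfer RNA genes were found more often at the 69 sites than at the other shared sites, but not more often than over all merged sites. Of all 1066 merged sites, 23.2% overlapped a tRNA gene. RNA polymerase III transcribes these short genes from promoter elements inside them, and they are among the most actively transcribed loci of a yeast cell. A tRNA gene was overlapped by 15 of the 69 sites (21.7%), against 5 of the other 134 shared sites (3.73%), of which 1 had the opposite order and 4 had overlapping ranks. No test was made of this difference, because the ranks of sites within a list depend on each other. None of the 15 held the inverted repeat within 250 bp. The mean enrichment was higher in YPD at all 15, and at 9 of them all YPD values were above all YPGly values. The 15 were chosen by their ranks. They make up most of the 20 shared tRNA sites, so the enrichment counts over the 20 follow in part from that choice. None of the 20 held the inverted repeat, 18 had the higher mean in YPD, and all YPD values were above at 10. All YPGly values were above at 2 of the 20. For the 15, further values follow. The median rank difference was 68.4 and the median ratio of the means, YPGly over YPD, was 0.68. Enrichments were low in both media, with means of 1.31 to 2.86 in YPGly and of 1.80 to 9.36 in YPD.

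The 5 largest mean enrichments in YPD among these came from chromosomes XII, XIV and XV. The site at the tRNA-Thr gene YNCN0010C, 1782 bp before the ATG of IDH1, had an enrichment of 2.80, 2.85 and 2.92 in YPGly and of 12.1, 6.80, 8.82 and 9.74 in YPD. It was ranked 146, 114 and 130 in YPGly and 23, 30, 21 and 29 in YPD, so that no list of a medium came near the range of the other. The tRNA-Ile gene YNCL0038W had 2.76, 2.57 and 3.02 in YPGly and 9.69, 6.19, 7.09 and 8.32 in YPD, and its ranks were 138 to 164 in YPGly and 32 to 39 in YPD.

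The tRNA-Leu gene YNCL0037W, 425 bp before MET17, had 1.63, 1.48 and 1.48 in YPGly and 4.93, 3.23, 3.55 and 4.34 in YPD. MET17 encodes the enzyme that fixes sulfide into homocysteine. The tRNA-Pro gene YNCN0011W, whose window is printed above, had the largest rank difference, 124.5, with 1.49, 1.42 and 1.57 in YPGly and 5.31, 2.87, 3.85 and 4.03 in YPD. The tRNA-Asp gene YNCO0019W, upstream of ORT1 (the mitochondrial ornithine carrier) and VPS17, had 2.10, 1.83 and 1.88 in YPGly and 4.81, 3.30, 3.51 and 4.24 in YPD. At all 5 genes the media were apart, and YPD repeat 2 gave the lowest of the YPD values.

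The further 10 genes were those of tRNA-Gly (SUF5 and YNCP0009W), tRNA-Ile (YNCN0012C and YNCD0017W), tRNA-Ser (SUP61 and YNCE0005W), tRNA-Pro (SUF2), tRNA-Phe (YNCP0008C), tRNA-Glu (YNCL0044W) and tRNA-Lys (YNCF0014C). No amino acid was common to more than 3 of the 15. The lowest ratio among these 10 was 0.47, at YNCN0012C, where the enrichment was 1.36, 1.33 and 1.23 in YPGly and 3.22, 2.26, 2.83 and 2.71 in YPD. This site had the last place of all 203 in YPGly lists 1 and 2 and places 78, 93, 69 and 85 in YPD. The highest ratio was 0.90, at SUF2, where the media overlapped.

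The merged sites as a whole gave the same genes a place mainly in the YPD lists. Of the 1066 merged sites, 247 overlapped a tRNA gene, and together they touched 252 of the 275 nuclear tRNA genes. No YPGly list called 186 of them (75.3%), and all 4 YPD lists called 139 (56.3%). Of the 819 other merged sites, 349 (42.6%) had no call in YPGly and 252 (30.8%) had calls in all 4 YPD lists. Only 20 tRNA sites had a call in all 7 lists and could be ranked, and 15 of these were among the 69. The YPD lists were longer, with 528 to 771 peaks, than the YPGly lists, with 373 to 520, so these counts also depend on how deep each list goes.

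**Figure D3:**
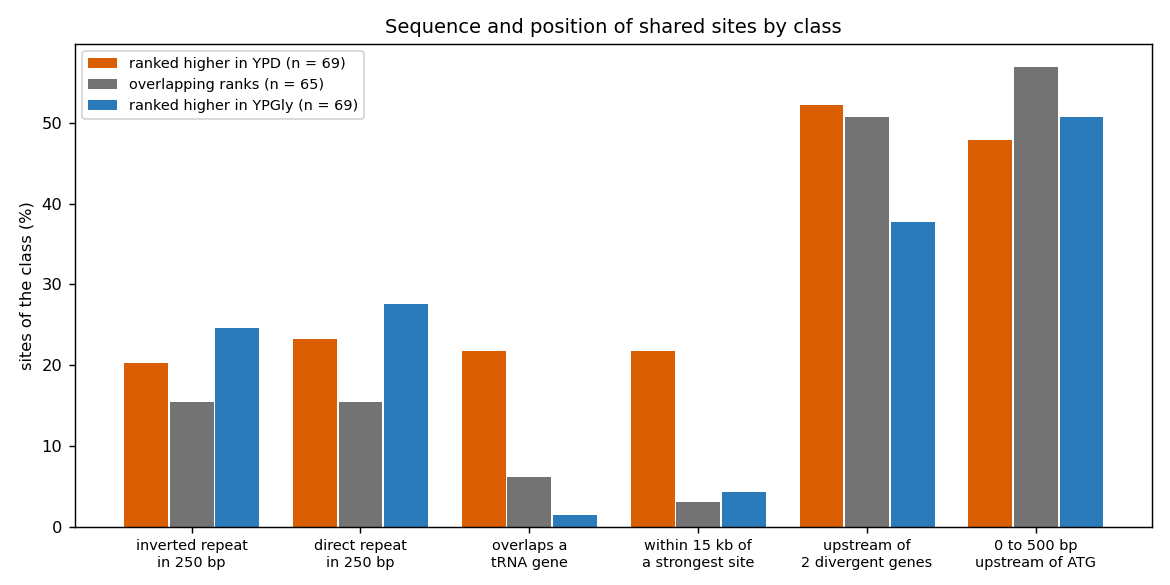
Share of sites, in percent, with each feature of sequence or position, for the 69 sites ranked higher in YPD (left bar), the 65 shared sites with overlapping ranks (middle) and the 69 ranked higher in YPGly (right); inverted repeat stands for CCGN5CGG and direct repeat for CGGN7CGG. Overlap with a tRNA gene (21.7%) and a center within 15 kb of one of the 10 strongest sites (21.7%) were more frequent in the first class than in the others. Over all 1066 merged sites these shares were 23.2% and 8.16%.

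A further feature was the company of a strong site. The 10 shared sites with the best mean rank over the 7 lists were those of ISA1, IDH2, IDH1, ACO1, HAP4, ISU1, YPR064W, YBL044W, NDE1 and ADR1, and 4 of them (IDH1, ISU1, YPR064W and NDE1) belong to the 69. Within 2500 bp of one of the 10 lay 3 of the 69 sites and 2 of the other shared sites. Within 5000 bp these numbers were 6 and 2. With 15 kb, a distance chosen after the positions had been seen, 15 of the 69 sites (21.7%) and 5 of the 134 others (3.73%) had such a neighbor, and 8 of the 15 were also at tRNA genes. The median rank difference of the 15 was 93.75, against 25.2 for the 54 of the 69 sites farther away or on a chromosome without one. Between 15 and 50 kb from a strongest site, 4 of 17 shared sites were among the 69. Beyond 50 kb it was 26 of 106, and on chromosomes without another of the strongest sites it was 24 of 60 (40%).

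**Figure D4:**
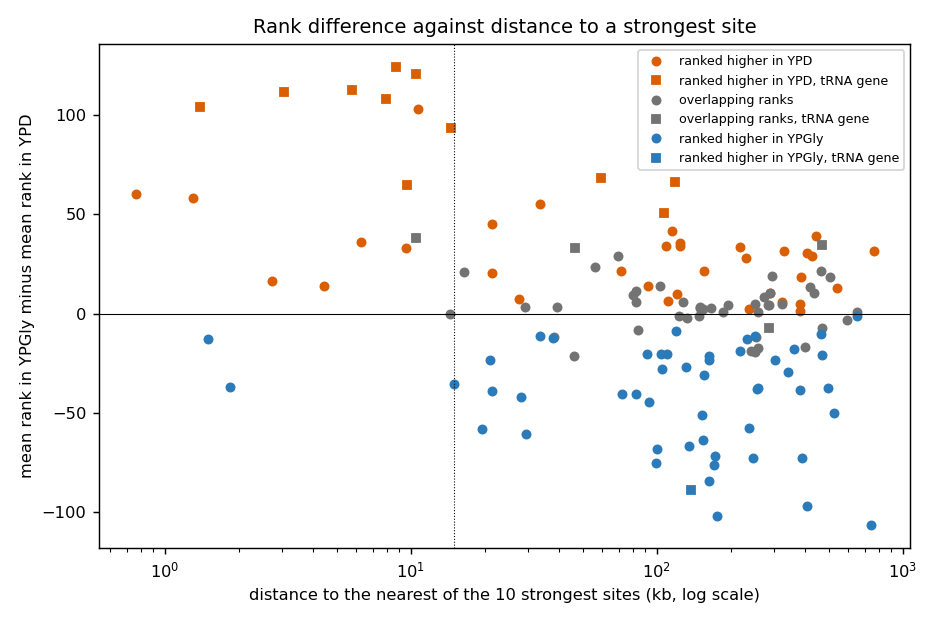
Mean rank in YPGly minus mean rank in YPD for shared sites on a chromosome with another of the 10 strongest sites, against the distance to the nearest of these in kb on a log scale; colors give the class, squares mark tRNA genes and the dotted line marks 15 kb. To the left of that line, 15 of 20 sites were ranked higher in YPD, with differences up to 124.5.

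The neighborhoods of 4 TCA cycle and iron-sulfur genes held most of these sites. Around ISA1, which encodes a protein of mitochondrial iron-sulfur cluster maturation, all 3 shared neighbors within 15 kb belonged to the 69. One was the promoter of HSP104, the chaperone that dissolves protein aggregates, 1302 bp from the center of the ISA1 site. Its enrichment was 5.72, 4.87 and 4.57 in YPGly and 11.15, 9.005, 9.389 and 11.23 in YPD, and its ranks were 82, 75 and 82 in YPGly and 22, 21, 23 and 20 in YPD. At SSA2, a cytosolic Hsp70 chaperone, 10674 bp away, the enrichment was 1.70, 1.41 and 1.49 in YPGly and 2.73, 2.28, 2.22 and 2.78 in YPD. Both chaperone promoters were apart between media. The third neighbor, TPO1, a polyamine exporter 2743 bp away, went the other way, with 20.89, 12.94 and 13.97 in YPGly and 13.96, 9.67, 10.04 and 13.57 in YPD. For ISA1 itself the mean enrichment was 206 in YPGly and 314 in YPD.

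Around IDH1 all 3 neighbors were the tRNA sites YNCN0010C, YNCN0011W and YNCN0012C, at 1392, 8754 and 10537 bp on the same side. Around IDH2, which encodes the other subunit of the isocitrate dehydrogenase, 3 of 4 neighbors belonged to the 69. These were the tRNA sites YNCO0019W and SUF5 and the site in RUP1, and the fourth, BAG7, 1844 bp away, had the opposite order. Around ACO1, which encodes aconitase, 3 of 5 neighbors belonged to the 69, namely the tRNA sites YNCL0037W and YNCL0038W and the promoter of EXG1, a cell wall glucanase. At EXG1 the mean enrichment was 4.17 in YPGly and 4.06 in YPD. The only shared neighbor of the HAP4 site, 765 bp away, was a second site between HAP4 and KTI12, which belonged to the 69 with a mean enrichment of 7.75 in YPGly and 6.27 in YPD. HAP4 encodes the activating subunit of the complex that turns on respiratory genes.

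**Figure D5:**
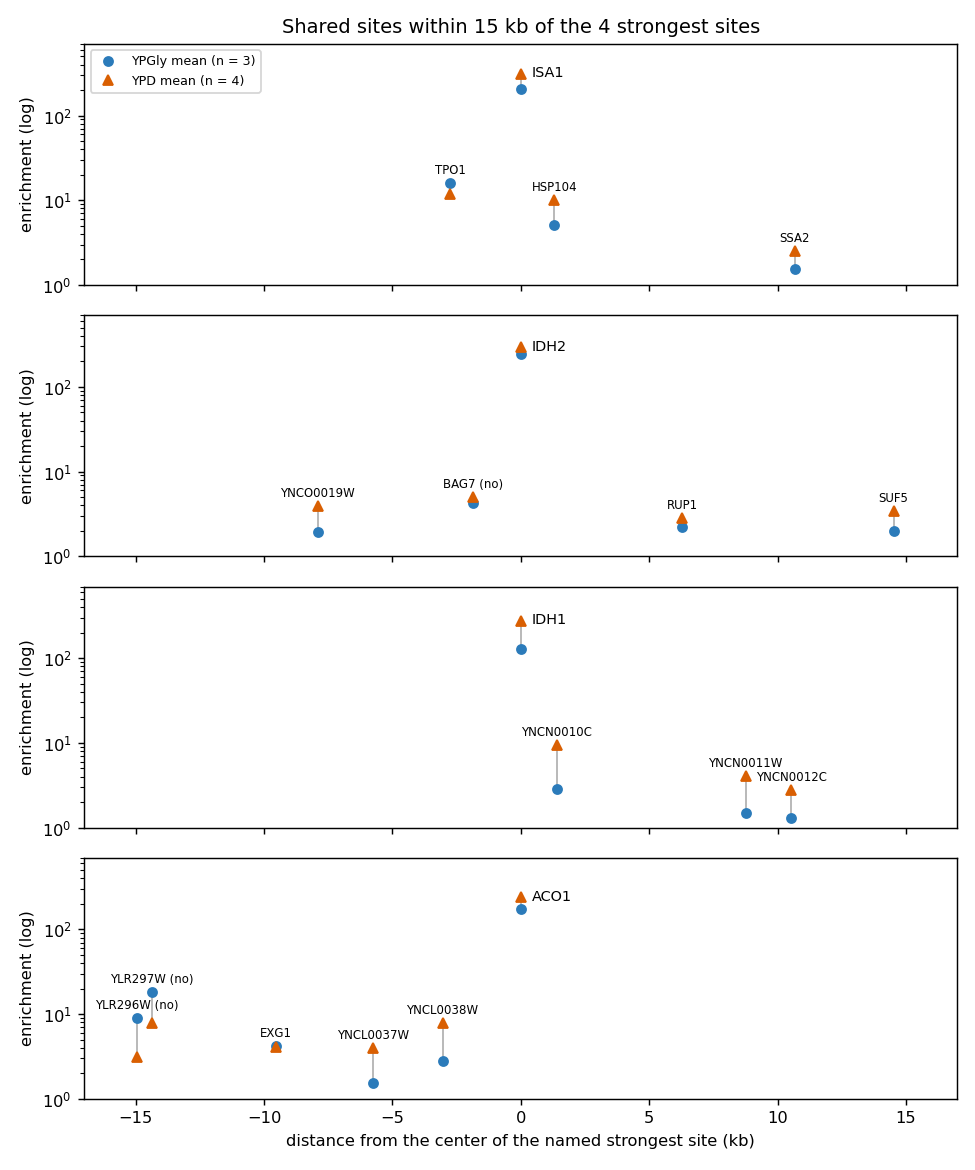
Mean enrichment on a log scale in YPGly (circles, n = 3) and YPD (triangles, n = 4) of the shared sites within 15 kb of ISA1, IDH2, IDH1 and ACO1, against the distance in kb from the center of the named site. Labels name the gene or tRNA gene and "(no)" marks sites outside the 69; 12 of the 15 neighbors belong to the 69, and most of these have the higher mean in YPD.

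Sites at a tRNA gene or within 15 kb of one of the strongest sites made up 22 of the 69. Among the 47 others the median rank difference was 21.7, the mean enrichment was higher in YPGly at 31 and in YPD at 16, and 13 held the inverted repeat (27.7%). When the tRNA sites were left out before ranking, all 54 remaining sites of the 69 kept their order, in a set that then held 66 sites. When the sites within 15 kb were left out, the 54 remaining also kept it, in a set of 73. Both alternatives were added after the values had been seen, and both favored that order, because the sites left out mostly stood better in YPD. The median of the mean ranks was 175 in YPGly and 122.9 in YPD for the 20 shared tRNA sites. For the 20 shared sites within 15 kb it was 142.2 in YPGly and 70.75 in YPD. The kept order is therefore a description and not a test. What part tRNA genes and strong neighbors have in the rank order was not tested.

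A gene was assigned to 65 of the 69 sites (94.2%) and to 130 of the other shared sites (97.0%), with the center from 2000 bp upstream to 200 bp downstream of an ATG or less than 500 bp inside a gene. The 65 sites gave 103 genes. The center lay at most 500 bp upstream of the nearest assigned ATG at 33 sites and from 500 to 1000 bp upstream at 24. It lay inside a reading frame at 9 sites. These are 47.8%, 34.8% and 13.0% of the 69, against 53.7%, 29.1% and 17.9% of the other shared sites. Over all merged sites the shares were 40.6%, 25.3% and 28.3%. Upstream of the nearest ATG on both strands, each within 2000 bp, lay 36 of the 69 sites (52.2%) and 59 of the other shared sites (44.0%). Not all of these are divergent promoters, because some centers lay inside another gene, such as that of GID7 in GLK1. The median GC content of the windows was 44.0% for the 69 sites and 47.6% for the others. A centromere was overlapped at 1 of the 69 sites, on chromosome IV, and at 4 of the others. At this centromere the enrichment was 2.36, 2.09 and 2.13 in YPGly and 2.97, 1.99, 2.07 and 2.16 in YPD. Chromosome XII carried 15 of the 69 sites among its 28 shared sites, while chromosome XIII, with 17 shared sites, carried only that of NDE1. For comparison, 34.0% of all shared sites belong to the 69, and chromosomes III and VIII had 3 of 5 and 3 of 4. The 15 on chromosome XII include 3 neighbors of ISA1 and 3 of ACO1, described above.

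Among gene groups, the pathways of respiration gave few of the 69 sites. Of the 26 TCA cycle genes listed, IDH1 alone was assigned, by its promoter site and by the tRNA site YNCN0010C, although 9 of the genes had a shared site and 6 of these (ACO1, CIT1, FUM1, IDH2, IDP2 and MDH2) had the opposite order. NDE1 was the only one of 43 genes of the respiratory chain and ATP synthase, of which 6 had a shared site. Of these 6, ATP14, COR1, DLD1 and QCR6 had a site with the opposite order. None of the 69 sites was assigned to the glyoxylate shunt and gluconeogenesis (3 genes with a shared site), to glycolysis and fermentation (1 gene) or to hexose transport and glucose sensing (no gene). The genes of these groups with a shared site (FBP1, ICL2, MLS1 and PYK2) had the opposite order. ISU1 was the only gene of 27 for iron-sulfur cluster assembly, of which 2 had a shared site, and no gene for iron uptake had one of the 69 sites. Counted by sites, the 69 held 2 of 10 shared sites at TCA cycle genes and 1 of 8 at respiratory chain and ATP synthase genes. At iron-sulfur cluster genes they held 1 of 2. For comparison, 34.0% of all shared sites belong to the 69, and the group counts are small.

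Of 33 genes of heme and sterol synthesis, 5 had a shared site, none with the opposite order, and ERG11 and ERG25 were among the 69. ERG11 encodes the lanosterol demethylase, a heme enzyme, and its enrichment was 11.7, 8.25 and 9.12 in YPGly and 7.97, 5.28, 5.42 and 7.46 in YPD, with ranks of 45 to 48 in YPGly and of 35 to 37 in YPD. ERG25 encodes the sterol methyl oxidase, and its ranks of 106 to 109 in YPGly and of 102 to 105 in YPD were next to each other. Of the carbon-source and oxygen regulators, 6 had a shared site, and HAP4 and HAP1 were assigned to one of the 69, while ADR1, IME1 and HAP4 had a site with the opposite order. That of HAP4 was its strong site, with a mean enrichment of 243 in YPGly and 128 in YPD, whereas the one among the 69 lay 1708 bp before HAP4 and 639 bp before KTI12. At HAP1, a heme-responsive activator, the site also faced the reading frame YLR255C, and the mean enrichment was 1.74 in YPGly and 1.81 in YPD.

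Amino acid synthesis gave GCN4, LYS20 and MET17, of 5 such genes with a shared site, and GLN1 and HIS1 had the opposite order. The site of MET17 was the tRNA site YNCL0037W. The site of GCN4, the activator of amino acid synthesis genes, held the inverted repeat and lay between GCN4 and MIT1, a regulator of pseudohyphal growth. It was nearer to MIT1, 674 bp before its ATG and 1455 bp before that of GCN4. Its enrichment was 8.85, 6.24 and 7.92 in YPGly and 8.00, 5.93, 5.98 and 7.70 in YPD, with overlap between media, at ranks of 50 to 54 in YPGly and of 25 to 30 in YPD. At LYS20, homocitrate synthase, the enrichment was at most 1.99 in YPGly and 1.87 in YPD. Of 3 cytosolic ribosomal protein genes with a shared site, RPS25B was assigned, 1301 bp from the tRNA site YNCL0044W. RPL43B and RPS3 had the opposite order.

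Heat shock and chaperone genes were listed after the sites had been seen, which favors a high count. Of the 29 listed, 7 had a shared site, and AHA1 had the opposite order. Among the 69, which are 34.0% of all shared sites, were 5 of the 7 (BTN2, HSP104, SSA1, SSA2 and UBI4). Of these, HSP104 and SSA2 are the neighbors of ISA1 described above. At SSA1, the Hsp70 paralog of SSA2, the enrichment was 2.63, 2.09 and 2.11 in YPGly and 2.32, 2.05, 1.99 and 2.53 in YPD. At BTN2, a sorting factor for misfolded proteins, it was 3.06, 2.11 and 2.32 in YPGly and 2.16, 2.06, 2.10 and 2.56 in YPD. At UBI4, the polyubiquitin gene induced by stress, it was 2.10, 1.79 and 1.99 in YPGly and 1.97, 1.77, 1.83 and 2.09 in YPD. These 3 overlapped between media in enrichment.

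Sites with the inverted repeat were stronger by the median, although YPR064W, SFG1, SDS23 and PDH1, among the 10 highest-scoring sites, held none. The median of the mean enrichments of the 14 was 10.3 in YPGly and 6.96 in YPD, against 2.28 in YPGly and 3.02 in YPD for the 55 without it. Their rank differences were smaller, from 2.08 to 45.3 with a median of 14.3, against 33.25. The 14 also stood higher in the lists, with a median of the mean ranks of 48.2 in YPGly and 27.1 in YPD. For the 55 it was 130 in YPGly and 79 in YPD. Whether the smaller differences go with the repeat or with the place in the lists was not tested. Among the 14, the mean enrichment was higher in YPGly at 7 and in YPD at 7. The site of GID7 had the widest gap of the 14, with an enrichment of 7.26, 5.02 and 6.16 in YPGly and of 7.28, 6.19, 6.04 and 8.60 in YPD. Its ranks were 62 to 64 in YPGly and 25 to 28 in YPD. It lay 1084 bp before the ATG of GID7, a subunit of the ubiquitin ligase that removes gluconeogenic enzymes, and its center was inside GLK1, the glucokinase gene. The site of MRPL15, a mitochondrial ribosomal protein, was the weakest of the 14, with a mean of 1.75 in YPGly and 2.21 in YPD.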

How the data were processed

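The authors aligned reads to the S288C genome and called peaks library by library, with the matching input as control and without pooling repeats. The peak caller and the roles of the tools in the submitters' notes (Trimmomatic 0.36, Bowtie2 2.3.3) are not given in the sources used here. The deposited score of a peak comes from the authors' peak calls of ChIP against input, and since its definition is not given in the sources used here, it served for ranks within a list only. The deposited enrichment is a ratio (fold of ChIP over input), as an estimate and as a lower bound. The deposited FDR, a q-value below 0.05 for each peak, is repeated as −log10 in the interval lists. No value was normalized again. The lists give no read numbers, so the depth behind each value could not be read from them, and errors printed are the SD between repeats.

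Intervals that overlapped by 1 bp or more were merged, and peaks of a list in 1 site were averaged, which concerned 5 of the 69 sites. These were the sites of KTI12, CIN1, ADE16, YER053C-A and MMO1 (the one 541 bp before its ATG). The lists are attached to samples titled as inputs, except those of YPGly repeats 2 and 3, whose samples are titled as ChIP but described as the partner of a ChIP library. Each list was taken as that of the medium and repeat in its sample's title. The reference was RefSeq assembly R64. Members and gene lists were chosen with earlier results of these data known. Sites named are the 10 of highest mean score in YPD, the 10 of largest rank difference, those at the border, and those at a listed gene, a tRNA gene or a centromere. Further genes (VHR1, GID7, MRPL15, RUP1, EXG1, TPO1, ADE16, YGL007C-A and those outside the 69) were named after their values were seen. Alternatives covered merging, ranking, list length, windows, distances and each repeat left out. The scripts were tested on simulated lists. Tables were made in pandas 2.3.3 and numpy 2.4.6 under Python 3.11.15, correlations with scipy 1.17.1 and figures with matplotlib 3.10.9.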

Additional observations from a re-analysis of the deposited data

How the results depend on the processing

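The number of sites ranked higher in YPD was 62 with a reciprocal overlap of 50% for merging, 71 with ranks by enrichment (58 of the 69 among them), 67 with the highest peak of a site, and 52, all among the 69, with every list held to the 373 peaks of the shortest. Leaving out each repeat in turn, with calls in the 6 other lists required, gave 73 to 81 sites, which kept 63 to 69 of the 69. Over these fits 14 to 16 sites held the inverted repeat, 33 to 46 had the higher mean enrichment in YPD, 69 to 76 were assigned to a gene, 16 to 21 overlapped a tRNA gene and 3 lay within 2500 bp of a strongest site. Counts that moved by over 1.5 times were the sites with the inverted repeat, 46 with 1 mismatch, those near a strongest site, 6 within 5000 bp and 15 within 15 kb, those with the higher mean enrichment in YPD, 19 without tRNA sites, and the tRNA sites, 8 without the sites within 15 kb of a strongest site. These changes follow from the wider pattern or distance and from the sites left out. Ranked without tRNA sites the set held 66 sites, and without the sites within 15 kb 73, with 54 of the 69 in each. The other 79 of 84 values stayed within 1.5 times. No paired analysis was possible because no result comes from a test.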
